A study of Mus musculus with 18 samples.

Results

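Transcripts of 10 chemokines were followed in B16F10 melanoma, in culture and in tumours: Ccl2, Ccl5, Ccl7, Ccl8, Cxcl1, Cxcl9, Cxcl10, Cxcl11, Cxcl12 and Cxcl16. The members were taken by gene symbol, and all 10 of them stood among the 23453 symbols of the count table. B16F10 is a melanoma line of C57BL/6J mice. The cells carried either a lentiviral pLKO.1 puro shRNA against Hgs, which encodes the endosomal sorting protein Hrs (shHrs), or a scrambled shRNA in the same vector (shCTL), so that control cells had been infected too. Cultured cells gave 8 libraries, in 2 batches of 2 shCTL and 2 shHrs each. Tumours gave 10 libraries, 5 shCTL and 5 shHrs, from the same cells grown in immunocompetent C57BL/6 mice, which the labels describe as females of 6 to 8 weeks. The knockdown sat only in the injected cells, and each tumour piece also held cells of the host. The labels count 4 biological repeats of the cells and 5 of the tumours without saying that cultures were grown apart, so the spread between cultures may be technical.

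Chemokines are small secreted proteins that guide leukocytes through receptors coupled to G proteins. Cxcl9, Cxcl10 and Cxcl11 are induced by interferons and bind Cxcr3 on activated T cells and natural killer (NK) cells. Ccl2 and Ccl7 draw monocytes, mainly through Ccr2, Ccl5 draws T cells and macrophages, and Cxcl1 draws neutrophils through Cxcr2. Cxcl12 is made chiefly by stromal cells and binds Cxcr4 and Ackr3, and Cxcl16 is a membrane-anchored ligand of Cxcr6 that proteases can release. Tumour cells, macrophages, fibroblasts and other cells can each be sources of these ligands in a tumour.

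On the mouse assembly GRCm38, which is that of mm10, most members stood in clusters. Ccl2 (chromosome 11, 82035571 to 82037453), Ccl7 (82045712 to 82047525) and Ccl8 (82115185 to 82116799) lay in that order on the forward strand. Gaps were 8.259 kb between Ccl2 and Ccl7 and 67.66 kb between Ccl7 and Ccl8. Ccl5 (83525778 to 83530518) and Cxcl16 (70453983 to 70459984) lay elsewhere on chromosome 11, on the reverse strand. Cxcl9 (chromosome 5, 92321347 to 92328079), Cxcl10 (92346638 to 92348889) and Cxcl11 (92359544 to 92365485) formed a row on the reverse strand, with gaps of 18.559 kb and 10.655 kb. Cxcl1 was at 90891241 to 90893115 of chromosome 5, and Cxcl12 was at 117168535 to 117181367 of chromosome 6. The annotation classes Cxcl11 as a polymorphic pseudogene, since the reference strain carries a reading frame that is broken early, so its reads show transcript and not protein. No stretch of 100 bases was shared between a member's transcripts and those of another gene. On the opposite strand, exons of Art3 overlapped 5.91% of the exonic length of Cxcl10, those of Zmynd15 overlapped 18.3% of Cxcl16 and those of Gm2673 overlapped 41.7% of Cxcl11, and without a stated strand setting such reads could not be told apart.

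The RefSeq promoter table (GRCm38.p6) matched 5 of the 10 members: Cxcl1, Cxcl9, Cxcl10, Cxcl12 and Ccl8. Promoters of Cxcl1, Cxcl9 and Cxcl10 are shown because these members could be read in cultured cells or are classic interferon targets, and because their windows held matches to the letters searched. Each run is the 250 bases before the start site, 5′ to 3′ on the gene's own strand, at chr5:90890995-90891244 (forward) for Cxcl1, chr5:92328080-92328329 (reverse) for Cxcl9 and chr5:92348890-92349139 (reverse) for Cxcl10. Capitals mark matches.
Cxcl1: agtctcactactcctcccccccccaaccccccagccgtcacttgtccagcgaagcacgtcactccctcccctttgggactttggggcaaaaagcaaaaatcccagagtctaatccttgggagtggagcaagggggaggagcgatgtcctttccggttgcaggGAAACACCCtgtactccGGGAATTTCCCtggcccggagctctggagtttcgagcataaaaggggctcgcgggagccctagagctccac
Cxcl9: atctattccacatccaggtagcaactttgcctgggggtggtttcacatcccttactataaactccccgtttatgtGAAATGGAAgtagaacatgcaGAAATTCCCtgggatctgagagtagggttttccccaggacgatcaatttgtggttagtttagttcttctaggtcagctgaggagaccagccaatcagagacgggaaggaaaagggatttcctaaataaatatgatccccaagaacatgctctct
Cxcl10: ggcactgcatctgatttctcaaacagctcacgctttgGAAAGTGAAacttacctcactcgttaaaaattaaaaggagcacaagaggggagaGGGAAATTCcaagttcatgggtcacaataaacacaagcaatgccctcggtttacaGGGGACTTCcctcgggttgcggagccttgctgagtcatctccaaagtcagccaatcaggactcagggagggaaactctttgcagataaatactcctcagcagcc
Patterns of letters were sought on both strands, in windows of 300 bases that run 250 before to 50 after the start. The ISRE-like pattern GAAANNGAA, after the interferon-stimulated response element, was held by 8.56% of 32851 promoters. The NF-kB-like pattern GGGNNNTTC was held by 13.96%, and the GAS-like pattern TTCNNNGAA, after the interferon gamma-activated site, by 8.30%. Cxcl10 had an ISRE-like match that began 213 bases before the start and NF-kB-like matches at 159 and 104. Cxcl9 had an ISRE-like match at 175 and an NF-kB-like match at 154. Cxcl1 had NF-kB-like matches at 88, 71 and 69 bases, of which the last pair lay on opposite strands of 1 overlapping stretch. The windows of Cxcl12 and Ccl8 held no match, and GAS-like letters were found in none of the 5. A match is a likeness of letters and was not tested for binding.

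Levels are given in CPM, counts scaled to 1 M reads per library (M, mega) after TMM adjustment of library sizes, and library totals ran from 17.6 to 27.7 M. The targeted gene checked the labels. Hgs lay between 95 and 115 CPM in the 4 control cultures, between 29.7 and 43.2 CPM in the 4 shHrs cultures, between 95.6 and 113 CPM in shCTL tumours and between 16.3 and 29.8 CPM in shHrs tumours. In tumours Hgs fell by 2.28 on the log2 scale (SE 0.16, adjusted p = 0.000106, edgeR quasi-likelihood test with Benjamini-Hochberg adjustment over all genes). In batch 2 it fell by 1.3 (SE 0.22, adjusted p = 0.0268 by edgeR), a call that was lost when any 1 of the 4 libraries of the batch was left out (adjusted p from 0.117 to 0.308). In batch 1 its log2 difference of -1.67 (SE 0.22) missed the threshold (adjusted p = 0.103 by edgeR), although the groups did not overlap. Markers matched the labelled materials: the 7 melanoma genes, led by Tyrp1, summed to 4209 to 19527 CPM in cultures and 19956 to 27692 CPM in tumours, while the 4 genes of all leukocytes summed to 0.384 to 4.12 CPM in cultures. A few libraries stood apart for these genes. Among tumours, shHrs tumour 4 was the highest for 8 of the 10 members and shCTL tumour 3 the lowest for 9, and in batch 1 the members of each pair of cultures differed widely.

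**Figure D1:**
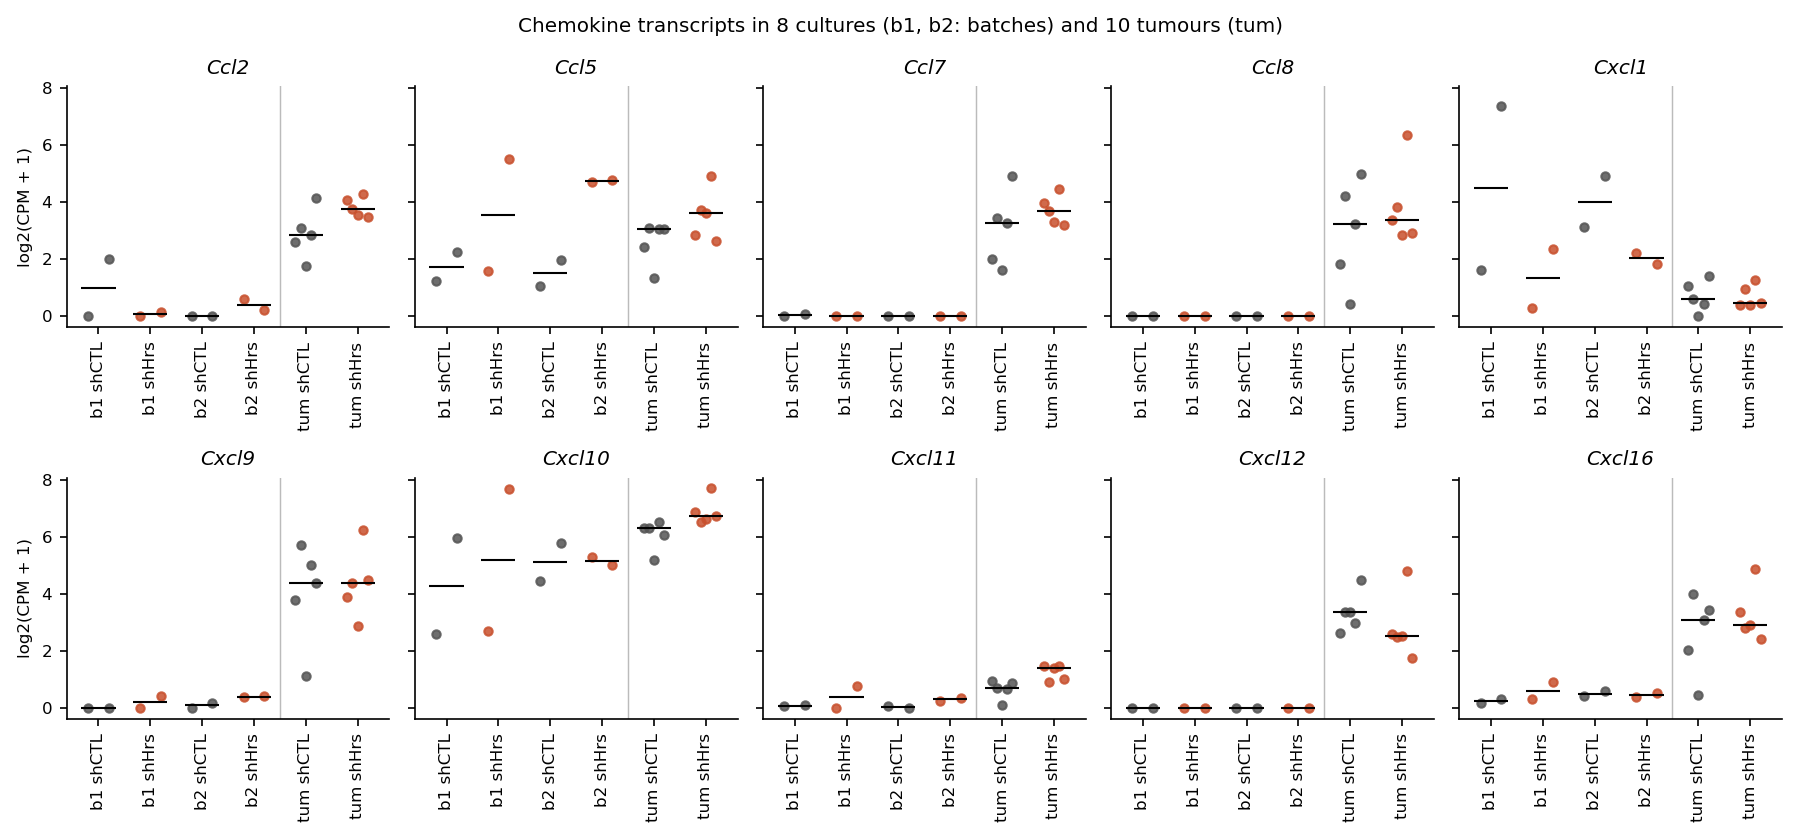
Level of each chemokine in every library, as log2(CPM + 1), for 2 batches of cultures (b1, b2) and for tumours (tum). Grey points are shCTL libraries, orange points are shHrs libraries and the black line is the median of the log values. Ccl7, Ccl8, Cxcl9 and Cxcl12 sat at or near 0 in all 8 cultures and above it in the tumours, Cxcl10 was present throughout, and Cxcl1 was lower in tumours than in most cultures.

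Cultured B16F10 cells had few of these transcripts. Only Cxcl10, Ccl5 and Cxcl1 exceeded 4 CPM in any culture. Ccl8 and Cxcl12 had 0 reads in all 8 libraries, and Ccl7 had a single read in a single library. Cxcl9, Cxcl11 and Cxcl16 stayed under 1 CPM in each culture, and Ccl2 was under 1 CPM in 7 of 8.

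Per kb of exon, the scale on which genes can be ranked against each other, Cxcl10 had the highest median of the members in shHrs cultures of batch 1 (47.0 CPM per kb) and controls of batch 2 (16.7), Ccl5 in shHrs cultures of batch 2 (27.2) and Cxcl1 in controls of batch 1 (45.1).

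Cxcl10, an interferon-induced ligand of Cxcr3, varied between cultures of 1 group. In batch 1 it was 5.02 and 60.6 CPM in the shCTL cultures and 5.52 and 206 CPM in the shHrs cultures. The pairs overlapped, since 1 culture of each was low and the other high. In batch 2 the levels were 20.8 and 54.3 CPM in shCTL and 37.9 and 31.1 CPM in shHrs, so that both shHrs values lay between the controls. The fitted log2 difference was 1.70 (SE 1.42, adjusted p = 0.715 by edgeR) in batch 1 and -0.13 (SE 1.38, adjusted p = 0.961 by edgeR) in batch 2. Without shHrs culture 2 the batch 1 value became -2.56, and without shCTL culture 2 it became 4.40, so it rested on single libraries.

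Ccl5, a chemokine of T cells and macrophages, had the largest positive difference in both batches among members with reads in both groups. It stood at 1.11 and 2.94 CPM in the batch 2 controls and at 25.4 and 26.8 CPM in the shHrs cultures, with no overlap. That is a fitted 12.8-fold difference (log2 3.67, SE 1.2) that missed the threshold over all genes (adjusted p = 0.0994 by edgeR). The same comparison passed in 6 of 15 alternatives and missed the threshold in the others, while its log2 value ran from 3.14 to 4.55. It passed with DESeq2 (adjusted p = 0.0457) and with the replicate number as a block in edgeR (adjusted p = 0.0486). In edgeR it passed with the 4 libraries of the batch fitted alone (adjusted p = 2.99e-06) and with no filter on low counts (adjusted p = 6.1e-06). It also passed in edgeR without shHrs culture 1 of batch 1 (adjusted p = 0.00195) or without shHrs culture 2 of batch 1 (adjusted p = 0.00221), libraries that enter this fit only through the shared spread. In batch 1 the controls had 1.33 and 3.74 CPM and the shHrs cultures 2.02 and 45 CPM. Only shHrs culture 2 stood above the controls, and culture 1 lay among them although Hgs was low in both. The log2 difference was 3.23 (SE 1.18, adjusted p = 0.497 by edgeR). Leaving out shHrs culture 1 of batch 1 gave 4.17 (adjusted p = 0.00331 by edgeR), and leaving out shHrs culture 2 gave -0.29.

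Cxcl1, a neutrophil-attracting chemokine, went the other way in its values. Controls of batch 1 had 2.08 and 167 CPM against 0.219 and 4.17 CPM in shHrs cultures, and the groups overlapped. In batch 2 the controls had 7.79 and 29.1 CPM and the shHrs cultures 3.62 and 2.59 CPM, and here both controls were the higher. The log2 differences were -5.24 (SE 1.82, adjusted p = 0.479 by edgeR) and -2.58 (SE 1.63, adjusted p = 0.329 by edgeR). Without shCTL culture 2, the library at 167 CPM, the batch 1 difference was 0.10. Nfkbia, an NF-kB target that feeds back on NF-kB, was also highest in that library, at 140 CPM against 20.4 to 30.1 CPM in the other 3 cultures of batch 1, and its part in the Cxcl1 difference was not tested.

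Ccl2, the main monocyte chemokine, had 0 and 3.01 CPM in controls of batch 1 and 0 and 0.0959 CPM in shHrs cultures, a log2 difference of -4.72 (SE 2.12, adjusted p = 0.551 by edgeR) that came from 1 control library. In batch 2 both controls were at 0 and the shHrs cultures had 0.511 and 0.146 CPM (adjusted p = 0.286 by edgeR). A test of the difference between the batches' effects on Ccl2 missed the threshold (adjusted p = 0.189 by edgeR). Cxcl16 had 0.118 and 0.223 CPM in batch 1 controls and 0.219 and 0.864 CPM in shHrs cultures, with a log2 difference of 1.70 (SE 0.86, adjusted p = 0.582 by edgeR). Its batch 2 values were 0.323 and 0.496 CPM in controls and 0.278 and 0.438 CPM in shHrs cultures, a log2 difference of -0.19 (SE 0.78, adjusted p = 0.892 by edgeR).

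Cxcl9 and Cxcl11, the neighbours of Cxcl10 that share its receptor, were too low to be tested in cultures. Cxcl9 had 0 CPM in both batch 1 controls, 0 and 0.336 CPM in batch 1 shHrs, 0 and 0.124 CPM in batch 2 controls and 0.278 and 0.328 CPM in batch 2 shHrs. Cxcl11 had 0.0393 and 0.0558 CPM, 0 and 0.672 CPM, 0.0461 and 0 CPM, and 0.186 and 0.255 CPM in the same order. For both of them the batch 2 shHrs cultures lay above the batch 2 controls, at levels of a few reads, and in batch 1 shHrs culture 2 lay above the controls while culture 1 was at 0.

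Of the 5 members that passed the filter on low counts in cultures (Ccl2, Ccl5, Cxcl1, Cxcl10 and Cxcl16), edgeR called 0 in batch 1, where 0% of all 12897 genes tested were called. By p alone 2 of the 5 were under 0.05, against 9.38% of all genes, and DESeq2 and limma voom called 0 as well. In batch 2 edgeR called 0 of 5 beside 4.03% of all genes, and 1 of 5 had an unadjusted p under 0.05, against 27.9% of all genes. DESeq2 called 1 there, Ccl5, and limma voom 0. The test of the difference between the batches' effects called 0 of 5 with edgeR, beside 0.155% of all genes, and DESeq2 and limma voom also called 0. By p alone 1 of the 5 was under 0.05 in edgeR, against 20.3% of all genes. With no filter on low counts edgeR called Ccl5 as higher and Cxcl1 as lower in both batches, and Ccl2 as lower in batch 1 and higher in batch 2.

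**Figure D2:**
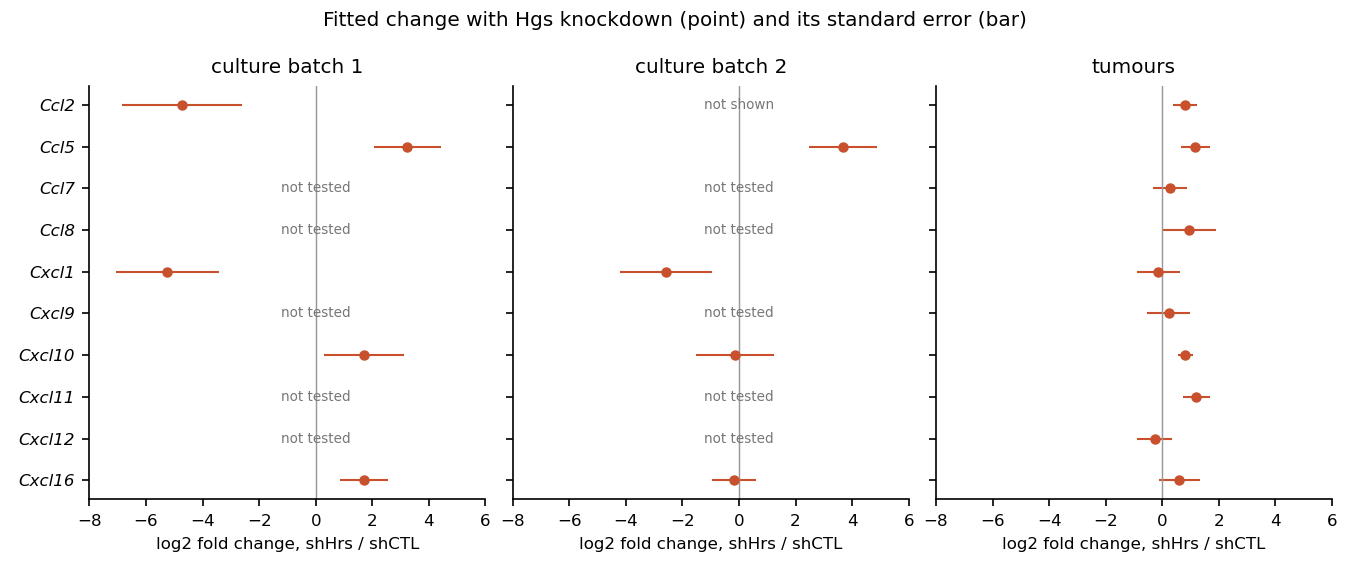
Fitted log2 fold change of each chemokine, shHrs over shCTL (point), with its standard error (bar), in each culture batch and in tumours. Members marked not tested were under the count filter, and Ccl2 of batch 2 is not shown because both controls were at 0. Ccl5 had log2 values of 3.23, 3.67 and 1.17, and bars were longer in cultures, with 2 libraries a group, than in tumours, with 5.

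In tumours every member was detected, and the 10 of them passed the filter. Values for 8 of 10 were higher in shHrs tumours by the fit, with a median log2 difference of 0.71, beside 51.5% of all genes with a positive value and a median of 0.01. Even so, edgeR called 0 of the 10, while 0.545% of all 13215 genes were called. An unadjusted p under 0.05 was found for 3 members (Cxcl10, Cxcl11 and Ccl5), against 14.1% of all genes. DESeq2 called 1 member, Cxcl10, and limma voom 0. An alternative without shCTL tumour 3 and shHrs tumour 4 was added after the data were seen. The first was the lowest tumour for 9 members and the second the highest for 8, so leaving them out was bound to lower most differences. Ccl7, Ccl8, Cxcl9 and Cxcl16 were then negative, at -0.22, -0.77, -0.92 and -0.45, which is no separate evidence on direction, and edgeR again called 0.

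The interferon-induced ligands of Cxcr3 differed among themselves. Cxcl10 was at 77.8, 78.4, 35.7, 90.9 and 66.2 CPM in shCTL tumours 1 to 5 and at 115, 91.1, 98.0, 207 and 106 CPM in shHrs tumours 1 to 5. The lowest shHrs tumour stood just above the highest shCTL tumour, so the groups did not overlap, which held for 1 of the 10 members and in that direction for 1.96% of all genes tested. The log2 difference was 0.82 (SE 0.27, adjusted p = 0.190 by edgeR, 0.0361 by DESeq2). Over the 18 alternatives its value ran from 0.38 to 0.94 and kept its sign.

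Cxcl11, the lowest of these ligands also per kb of exon, was at 0.922, 0.599, 0.059, 0.577 and 0.828 CPM in shCTL tumours and 1.73, 0.884, 1.62, 1.75 and 1.03 CPM in shHrs tumours. Overlap was slight, with 1 shHrs tumour below the highest control. The log2 difference was 1.21 (SE 0.48, adjusted p = 0.283 by edgeR). Cxcl9 had 12.7, 51.4, 1.18, 30.9 and 19.98 CPM in shCTL tumours and 13.9, 19.7, 6.34, 75.1 and 21.3 CPM in shHrs tumours. Both groups spanned more than a 10-fold range, their medians were 19.98 and 19.7 CPM, and the log2 difference was 0.22 (SE 0.77, adjusted p = 0.932 by edgeR).

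Of the clustered Ccl2, Ccl7 and Ccl8, Ccl2 was 5.10, 7.54, 2.36, 6.29 and 16.9 CPM in shCTL tumours and 15.8, 12.5, 10.6, 18.4 and 10.1 CPM in shHrs tumours. All 5 shHrs tumours exceeded 4 of the 5 controls, and shCTL tumour 5 lay among them. The log2 difference was 0.81 (SE 0.41, adjusted p = 0.418 by edgeR). Ccl7 had 3.01, 9.83, 2.07, 8.65 and 29.3 CPM against 14.7, 12.1, 8.95, 20.9 and 8.30 CPM (log2 0.28, SE 0.59, adjusted p = 0.874 by edgeR). The highest value of Ccl7 was that of shCTL tumour 5, and without it the log2 difference was 1.14. Ccl8 had 2.57, 17.5, 0.354, 8.31 and 31.2 CPM against 9.42, 13.2, 6.20, 80.8 and 6.53 CPM (log2 0.94, SE 0.96, adjusted p = 0.721 by edgeR), and it had the largest SD of the members over the 10 tumours, 1.44 on the log2(CPM + 2) scale.

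Ccl5 was at 4.32, 7.54, 1.53, 7.38 and 7.40 CPM in shCTL tumours and 6.22, 12.1, 11.4, 29.0 and 5.17 CPM in shHrs tumours. Of the shHrs tumours, 3 stood above all controls and 2 lay within their range. The log2 difference of 1.17 (SE 0.51, adjusted p = 0.329 by edgeR) was smaller than those of the cultures. A test of the tumour effect minus the mean culture effect gave -2.33 (SE 0.98, adjusted p = 0.182 by edgeR), and -2.80 without shHrs culture 1 of batch 1 (adjusted p = 0.0232 by edgeR).

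Cxcl16 had 3.06, 14.7, 0.354, 7.44 and 9.82 CPM in shCTL tumours and 9.17, 5.98, 6.44, 28.5 and 4.27 CPM in shHrs tumours, with wide overlap and a log2 difference of 0.61 (SE 0.73, adjusted p = 0.770 by edgeR). Cxcl12, the stromal ligand, had 5.10, 9.28, 9.15, 6.92 and 21.4 CPM against 4.96, 4.53, 4.67, 26.9 and 2.38 CPM. Apart from shHrs tumour 4 the shHrs values lay below each control, yet the log2 difference was only -0.27 (SE 0.63, adjusted p = 0.891 by edgeR). It was -1.38 without shCTL tumour 3 and shHrs tumour 4, but leaving out the latter, the highest tumour for Cxcl12, was bound to lower it. Cxcl1 had 1.07, 0.499, 0, 0.346 and 1.66 CPM against 0.324, 0.936, 0.295, 1.39 and 0.370 CPM (log2 -0.14, SE 0.76, adjusted p = 0.957 by edgeR). At these low read counts of Cxcl1 a small difference was not detectable. The tumour effect on Cxcl1 minus the mean culture effect was 3.70 (SE 1.46, adjusted p = 0.153 by edgeR). Over all members that test called 0 of 10 with edgeR, beside 3.61% of genes, and DESeq2 and limma voom called 0. By p alone 2 of the 10 were under 0.05 in edgeR, against 21.0% of all genes. Ccl7, Ccl8 and Cxcl12 had next to no reads in cultures and entered through the tumours. No culture effect could be estimated for them, so their lack of a call says nothing.

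Levels in tumours were set beside those of cultures by summed counts, as a description, since growth in an animal, host cells and any difference in handling cannot be told apart. Intervals are 95% ones from the exact binomial share of the reads and cover counting error only. For Ccl8, 1118 reads in shCTL tumours stood against 0 in shCTL cultures, at least 358-fold higher when 3 counts over the group are taken as the floor, and shHrs tumours were at least 626-fold higher. Cxcl12 was at least 305-fold higher in shCTL and 238-fold higher in shHrs tumours. Cxcl9 was 707-fold (241 to 3429) higher in shCTL tumours and 103-fold (68.2 to 165) higher in shHrs tumours. In contrast, Cxcl10 was only 2.11-fold (2.02 to 2.21) and 1.77-fold (1.72 to 1.82) higher in tumours. Ccl5 was 2.59-fold (2.19 to 3.06) higher in shCTL tumours but had a tumour-to-culture ratio of 0.466 (0.435 to 0.499) with shHrs. Cxcl1 was the member lower in tumours with either shRNA, with ratios of 0.0166 (0.0129 to 0.0211) in shCTL and 0.228 (0.172 to 0.299) in shHrs, and its high control culture carried much of the first.

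Ordered by median level over the 6 groups, the members fell into 4 orders. Ccl2, Ccl7, Ccl8, Cxcl9, Cxcl11, Cxcl12 and Cxcl16 had both tumour groups on top. For Ccl7, Ccl8, Cxcl9 and Cxcl12 neither tumour group overlapped any culture group. For Cxcl16 the shHrs tumours lay above all cultures. Its shCTL tumours reached down to 0.354 CPM, within the ranges of the batch 1 shHrs cultures and of both batch 2 groups. Ccl5 was led by both shHrs culture groups, at medians of 26.1 and 23.5 CPM, then shHrs tumours at 11.4 CPM and shCTL tumours at 7.38 CPM, with the control cultures last at 2.54 and 2.02 CPM, and each neighbour in that order overlapped the next. Cxcl1 ran from control cultures at 84.6 and 18.4 CPM through shHrs cultures at 3.11 and 2.20 CPM to tumours at 0.499 and 0.370 CPM. Of its neighbours only batch 2 shCTL and batch 2 shHrs did not overlap. For Cxcl10, too, each neighbour overlapped the next, and medians lay between 32.8 and 106 CPM.

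Per kb of exon, Cxcl10 led in both tumour groups, with medians of 34.5 CPM per kb in shCTL and 47.2 CPM per kb in shHrs tumours. Ccl8 came next, at 16.3 and 18.4, then Ccl7, at 10.8 and 15.1 CPM per kb. Medians of Ccl5 were 7.69 and 11.8, those of Ccl2 5.52 and 11, and those of Cxcl9 6.62 and 6.54 CPM per kb. Cxcl16 and Cxcl12 followed, and Cxcl1 and Cxcl11 had medians under 0.5 CPM per kb. Most neighbours in this order overlapped in range, and exon length was that of all annotated exons, which understates members with rarely used exons.

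**Figure D3:**
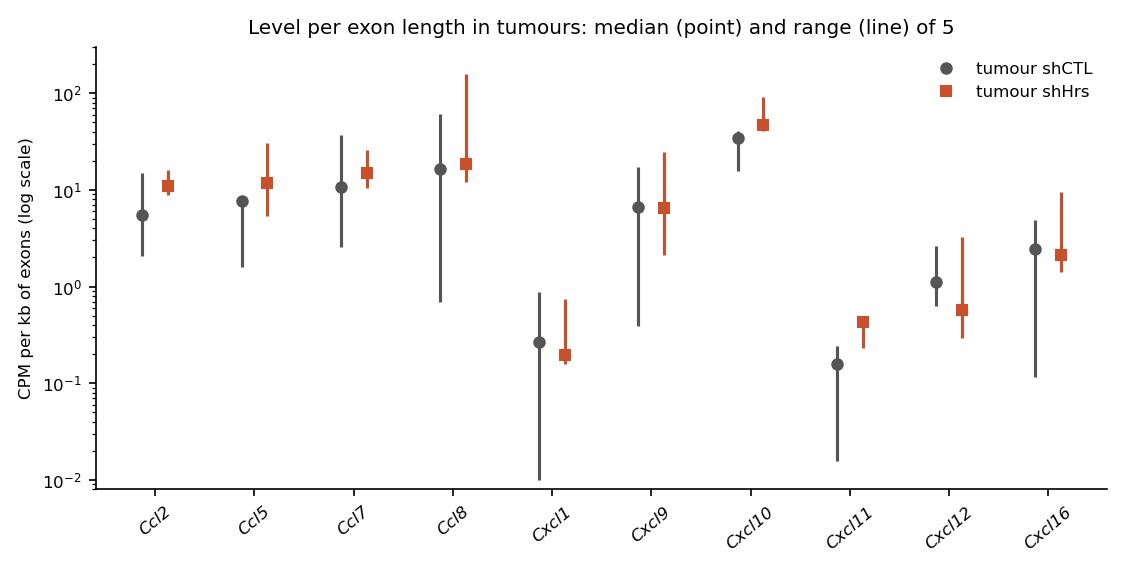
Level per kb of exon in tumours, in CPM per kb on a log axis, with the median of 5 tumours (circle, shCTL, and square, shHrs) and the range (line). Cxcl10 stood highest in both groups, Cxcl1 and Cxcl11 lowest, and the lowest shCTL value of Cxcl1 was 0 and is drawn at the lower end of the axis.

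Markers of host cells moved with several members across tumours. In a bulk sample, fewer cells of a type and less RNA per cell cannot be told apart. The 4 genes of all leukocytes, of which Laptm5 was highest and Ptprc lowest, summed to 22.04, 72.9, 9.44, 51.3 and 93.7 CPM in shCTL tumours and to 55.9, 52.2, 37.6, 183 and 35.0 CPM in shHrs tumours. The tumour with the least and the tumour with the most were thus shCTL 3 and shHrs 4, the same libraries that were lowest and highest for most members. The 10 macrophage genes, from Lyz2 down to Itgam, ranged from 39.3 to 591 CPM (median 289) with shCTL and from 218 to 1019.5 CPM (median 335) with shHrs. The 8 T cell genes, from Cd4 down to Cd5, ranged from 0.236 to 6.99 CPM with shCTL and from 2.11 to 26.2 CPM with shHrs, and the 6 genes of NK and cytotoxic cells, from Gzmb down to Ncr1, from 0.177 to 4.42 and from 0.738 to 12.3 CPM. None of the genes on these 4 lists was at 0 in all tumours. In cultures the NK and cytotoxic genes were at 0 throughout, but the macrophage genes summed to 3.02 to 35.4 CPM, close to the lowest tumour. Their part in the chemokine values was not tested.

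Other host lists had patterns of their own. The 6 fibroblast genes, from Col3a1 down to Fap, were highest in shCTL tumour 5 (983 CPM) and shHrs tumour 4 (666 CPM), the 2 tumours with the most Cxcl12, and ranged otherwise from 71.6 to 501 CPM. In cultures the fibroblast genes summed to 16.3 to 54.5 CPM. The 5 endothelial genes, from Cdh5 down to Tek, ranged from 81.2 to 148 CPM over all tumours. Neutrophil genes (4, from Csf3r down to Retnlg), dendritic cell genes (5, from Zbtb46 down to Flt3) and B cell genes (4, from Cd79a down to Ms4a1) reached at most 7.11, 22.1 and 3.40 CPM, and the dendritic cell list stood at 6.57 to 19.4 CPM in cultures too. Skeletal muscle genes, from Acta1 down to Ckm, had medians of 14.2 CPM with shCTL and 177 CPM with shHrs, red blood cell genes, led by Beta-s and with Hba-a1 at 0 in all tumours, of 791 and 79.3 CPM, and keratinocyte genes, from Krt5 down to Krt1, of 0.0499 and 0.104 CPM. Between treatments 0 of the 13 lists differed at an adjusted p of 0.05 in exact two-sided permutation tests over 252 splits. The floor of such an exact test, p = 0.00794, would not pass for a single list after adjustment over 13, so this count says little. The p of all leukocytes was 0.611, that of macrophages 0.508, of T cells 0.675, of NK and cytotoxic cells 0.746, of neutrophils 0.968, of dendritic cells 0.619, of B cells 0.897, of fibroblasts 0.706, of endothelial cells 0.841, of melanoma cells 0.381 (Tyrp1 highest, Tyr lowest), of muscle 0.0714, of keratinocytes 0.151 and of red blood cells 0.0317, which was 0.413 after adjustment over lists.

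**Figure D4:**
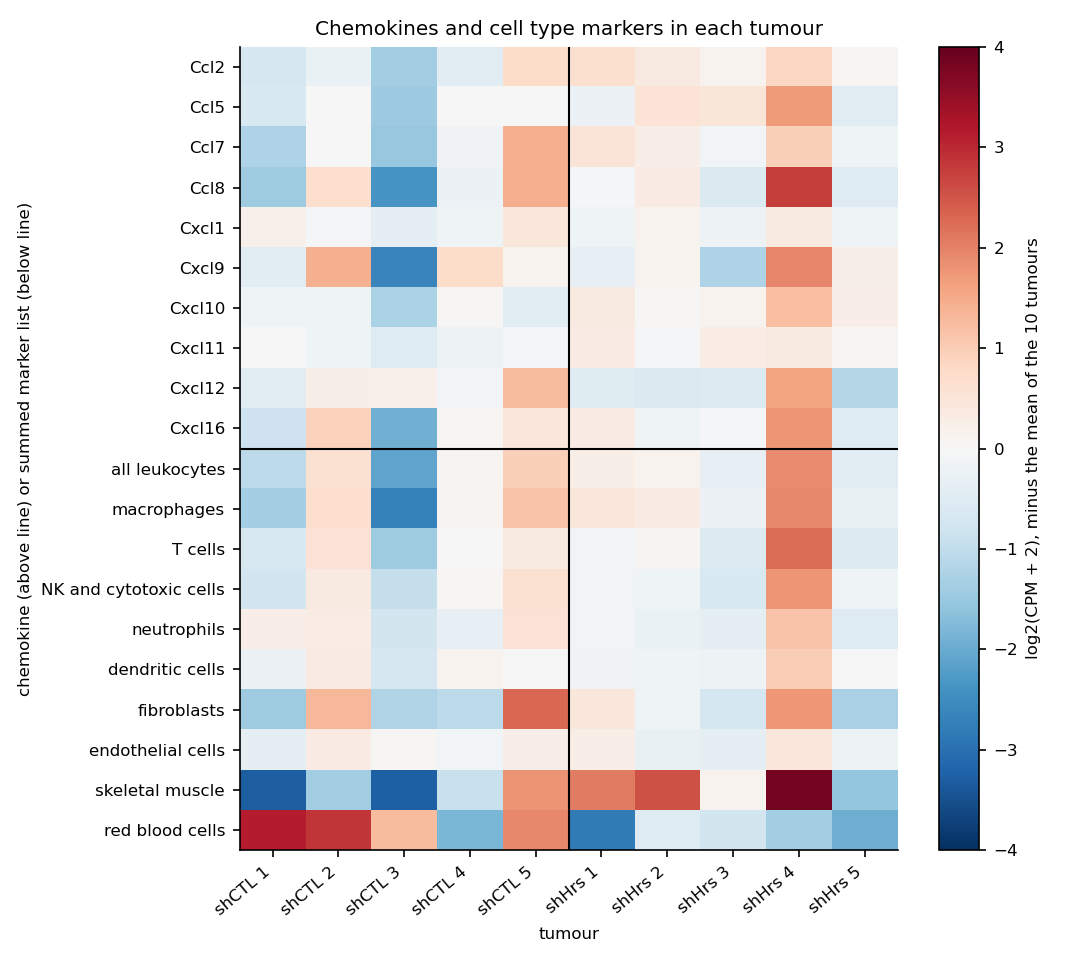
Chemokines (above the line) and summed marker lists (below it) in each of 10 tumours, as log2(CPM + 2) minus the mean of the 10. Red is above and blue below the mean; shHrs tumour 4 is red for 10 of 10 chemokines and for the leukocyte lists, and shCTL tumour 3 is blue for 9 of 10 chemokines.

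The members were also read against the leukocyte genes of the same tumour. Cxcl16 amounted to 0.0375 to 0.202 CPM per CPM of leukocyte genes with shCTL and 0.115 to 0.171 with shHrs, with medians of 0.139 and 0.156, a narrower range than that of its CPM. For Cxcl12 the medians were 0.229 and 0.0889, and the shHrs range of 0.068 to 0.147 reached into that of the controls, 0.127 to 0.969. For Cxcl10 the medians were 1.77 and 2.06, within ranges of 0.707 to 3.77 and 1.13 to 3.04. Medians with shCTL and shHrs were 0.180 and 0.282 for Ccl2, 0.144 and 0.158 for Ccl5 and 0.169 and 0.237 for Ccl7. They were 0.162 and 0.186 for Ccl8, 0.575 and 0.378 for Cxcl9, 0.00684 and 0.00784 for Cxcl1 and 0.00884 and 0.0293 for Cxcl11. The ranges of the 2 groups overlapped for each of these as well.

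The genes with the nearest pattern over the 10 tumours were sought among 13214 genes, by the root mean square (RMS) difference of centred log2(CPM + 2). Nearest to Cxcl16 were Tyrobp (RMS 0.17) and Nckap1l (0.21), and nearest to Ccl7 were Mrc1 (0.23) and Trem2 (0.27), genes of myeloid cells. Ccl2 was nearest to Ccl12 (0.23), another monocyte chemokine, and Msr1 (0.25). Cxcl9 was nearest to the interferon-induced GTPases Gbp4 (0.24) and Gbp2 (0.34). Cxcl10 was nearest to Parp10 (0.24) and Apobec1 (0.25), Ccl5 to Apobec1 (0.29) and Cd68 (0.29), Ccl8 to Lsp1 (0.23) and C1qa (0.33), and Cxcl12 to Prkcdbp (0.29) and Galnt16 (0.29). Cxcl1 (nearest Prx and Bcl6) and Cxcl11 (nearest Tmem62 and Prnp) hardly varied on this scale, with SDs of 0.28 and 0.27, so nearness to them says little.

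The wider chemokine system was read from 4 lists. Among 14 tested ligands other than the members, 10 receptors and 3 proteases, 0 passed in tumours, and of 22 tested inducers of the interferon and NF-kB routes 0 passed as well, while 0.545% of all genes were called. By p alone 6 of the 22 inducers and none of the other lists' genes were under 0.05 in edgeR, against 14.1% of all genes. Numbers positive were 10 of 14 ligands, 7 of 10 receptors, 2 of 3 proteases and 16 of 22 inducers, beside 51.5% of all genes, with medians of 0.28, 0.60, 0.04 and 0.06. In cultures, 6 other ligands, 3 receptors and 2 proteases could be tested in each batch, and edgeR called 0 of them in either. Of the 22 inducers edgeR called 0 in batch 1 (4 with an unadjusted p under 0.05, against 9.38% of all genes) and 1 in batch 2 (9 under 0.05, against 27.9% of all genes, of which 4.03% were called).

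That gene was Irf9, the DNA-binding part of the complex that type I interferon activates. It was at 6.68 and 6.91 CPM in batch 2 controls and rose to 44.0 and 46.6 CPM in shHrs cultures (log2 2.73, SE 0.51, adjusted p = 0.0329 by edgeR), a call that was lost when any 1 of the 4 libraries of the batch was left out (adjusted p from 0.121 to 0.300 by edgeR). Its batch 1 values were 12.6 and 8.09 CPM in controls and 12.7 and 40.3 CPM in shHrs cultures. There shHrs culture 1 lay just above the higher control and shHrs culture 2 far above both. Irf7, the amplifier of interferon transcription, had a log2 difference of 3.00 (SE 0.85, adjusted p = 0.0758 by edgeR) in batch 2 and 1.37 (SE 0.67, adjusted p = 0.395 by edgeR) in tumours. Irf1 had log2 differences of -0.92, 0.52 and 0.59 in batch 1, batch 2 and tumours, and Rela, an NF-kB subunit, of 0.05, 0.68 and 0.06, none past the threshold. For Nfkbia they were -2.01, -0.34 and 0.01, also short of it. The interferon genes themselves were scarcely seen, with Ifnb1 at most 0.164 CPM and Ifng at most 0.722 CPM in any tumour, and the highest Ifng value was that of shHrs tumour 4.

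Receptors for the members were mainly tumour transcripts. Ccr2 (0.177 to 26.5 CPM), Ccr1 (0.59 to 8.66 CPM) and Cxcr4 (3.25 to 15.4 CPM) were at 0 in all 8 cultures. Their log2 differences in tumours were 1.44 (SE 0.87), 0.68 (SE 0.50) and 0.06 (SE 0.38), and none passed the threshold. Ccr2 and Ccr1 were lowest in shCTL tumour 3 and highest in shHrs tumour 4, as most members were. Cxcr3, the receptor of Cxcl9, Cxcl10 and Cxcl11, did not share that order: it ran from 4.86 to 7.84 CPM in shCTL tumours, with 5.61 CPM in shCTL tumour 3, and from 3.99 to 5.10 CPM in shHrs tumours, with 4.23 CPM in shHrs tumour 4 (log2 -0.36, SE 0.18, adjusted p = 0.415 by edgeR). Ackr3, listed in the table as Cxcr7, was present in cultures (0.0959 to 1.97 CPM) and tumours (2.70 to 12.4 CPM) and had a tumour log2 difference of -0.45 (SE 0.36, adjusted p = 0.638 by edgeR). Cxcr6 reached at most 1.19 CPM, in shHrs tumour 4, and Cxcr2 and Ccr3 at most 0.155 and 0.0577 CPM, so these receptors of Cxcl16, Cxcl1 and Ccl5 were too low to be tested in tumours.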

How the data were processed

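RNA of 8 cultures and 10 tumours was sequenced in pairs on an Illumina HiSeq from NEBNext Ultra libraries, per the labels' protocols. Per the submitters' processing notes, STAR 2.4.0h2, DESeq and build mm10 were used. Which tool counted reads, on which annotation and with which strand setting, is not given in the sources used here. The authors deposited 1 table of whole-number read counts by gene symbol, without normalization. Total counts were 17.6 to 27.7 M per library, which sets the precision of low members. Groups came from the labels. Libraries of 1 group differed beyond counting noise (chi-square per degree of freedom 14.5 to 220), so none was taken for a library deposited more than once, which does not show that they are independent.

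Counts were filtered by filterByExpr of edgeR 4.0.16 (minimum count 10), scaled by TMM and tested, two-sided, by edgeR's quasi-likelihood F test in R 4.3.3, with Benjamini-Hochberg adjustment over all genes and a threshold of 0.05. The tumours were fitted alone, the 8 cultures together, and all 18 libraries for the tumour-minus-culture difference. SEs were computed from each fold change and its F. Marker lists were compared by exact permutation of summed CPM. Alternatives were DESeq2 1.42.0, limma 3.58.1 voom, other scalings, no filter, the replicate number as a block, other sets of libraries and each library left out. The procedures were tested on simulated data.

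The members and lists were chosen with earlier results of these data known. The lists (17, with 152 genes) were written by hand; 7 genes matched through an older symbol and 2, Ly6g and Hbb-bt, did not match. Genes were named by rule: Hgs, the members, list genes past the threshold (up to 4 per list and direction), 9 receptors, 7 regulators, each marker list's highest and lowest gene in tumours and the 2 nearest genes per member; Cxcl12's link to particular tumours and Nfkbia's value in 1 culture were singled out after values were seen. GENCODE M21 (mouse, GRCm38) gave positions. Not all genes the rule took are reported here.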

Additional observations from a re-analysis of the deposited data

Results flagged for a closer look

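Within 7 of 20 pairs of member and tumour group the highest tumour stood far from the other 4, with a gap to the next that took most of the group's range. Chance flags about 1 in 20 groups when values are independent and normal, and these members share the same tumours. In shHrs tumours it was the same library each time, shHrs tumour 4, with Ccl8 at 80.8 CPM, Cxcl9 at 75.1 CPM, Cxcl10 at 207 CPM, Cxcl12 at 26.9 CPM and Cxcl16 at 28.5 CPM. In shCTL tumours it was shCTL tumour 5, with Ccl7 at 29.3 CPM and Cxcl12 at 21.4 CPM. Leukocyte genes summed to 183 CPM in shHrs tumour 4 against 35.0 to 55.9 CPM in the other shHrs tumours. Fibroblast genes summed to 983 CPM in shCTL tumour 5 against 71.6 to 501 CPM in the other controls. Either tumour was also the highest of its group for the other list. Fibroblast genes were at 666 CPM in shHrs tumour 4, and leukocyte genes at 93.7 CPM in shCTL tumour 5. Macrophage and muscle genes were highest in the same tumours. The part of these lists in the chemokine values was not tested.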

How the results depend on the processing

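Counts of called members were 0 in each fit as reported. DESeq2 called 1 in tumours (Cxcl10) and 1 in batch 2 (Ccl5). With no filter on low counts edgeR called 3 in each batch and 1 (Ccl2) for the difference between batches. In batch 2 the replicate block gave 1 (Ccl5) and the 4 libraries of the batch alone gave 2 (Ccl5 and Cxcl1). Leaving out a library gave 0 to 1 in batch 1, in batch 2, for the difference between batches and for the tumour-minus-culture difference, Ccl5 each time, and 0 in tumours.

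Counts of called genes moved more. In tumours they were 72 as reported, 549 with DESeq2, 29 with all 18 libraries in the fit and 32 (without shCTL tumour 3) to 158 (without shHrs tumour 4) with libraries left out. In batch 1 they were 0, then 438 with no filter, 220 with DESeq2 and 0 to 1496 (without shHrs culture 1) with a library left out. In batch 2 they were 520, then 2224 with no filter, 1988 with DESeq2, 4303 with the 4 libraries alone and 0 (without shCTL culture 1 of that batch) to 2732 (without shHrs culture 2 of batch 1). For the difference between batches they were 20, then 1311, 980 and, with limma voom, 13, and 0 to 1968 with a library left out. For the tumour-minus-culture difference they were 522, then 1410 with DESeq2 and 125 to 2194. The cause of these shifts was not tested.

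The labels tie no replicate number to a shared animal, batch or day. The correlation of same-numbered deviations ran from -0.58 to 0.45 in tumours, so the numbers were not taken as pairs there. In cultures, with 2 pairs a batch, it was 0.19 and 0.02 and each sample was nearest to its own number, too little to settle a pairing. With the replicate number as a block edgeR called 2 genes in tumours and 1 in batch 1, Cxcl1 had a log2 difference of 0.13 in tumours and Cxcl10 of 0.022 in batch 2, against -0.14 and -0.13 as reported. With limma voom the same pair had 0.38 and 0.014.

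Log2 differences whose sign changed when libraries were left out ran, in tumours, from -0.22 to 1.14 for Ccl7, -0.77 to 1.69 for Ccl8, -0.92 to 0.42 for Cxcl1, -0.92 to 0.74 for Cxcl9, -1.38 to 0.19 for Cxcl12 and -0.45 to 1.06 for Cxcl16. The lowest values of Ccl7, Ccl8, Cxcl9, Cxcl12 and Cxcl16 came from the fit without shCTL tumour 3 and shHrs tumour 4, a pair chosen by its levels. In batch 1 they ran from -8.04 to 3.36 for Ccl2, -0.29 to 4.17 for Ccl5, -8.55 to 0.10 for Cxcl1 and -2.56 to 4.40 for Cxcl10, and in batch 2 from -0.66 to 0.73 for Cxcl10 and -0.50 to 0.15 for Cxcl16. Where a group was left with 1 culture, that culture was assumed to vary like the other groups. The summed markers of all leukocytes differed by -14.8 to 33.8 CPM and those of macrophages by -64.1 to 220 CPM, shHrs minus shCTL. A count of marker lists past the threshold was 0 throughout, but the tests were too small for a single list to pass. In tumours Ccl2, Ccl5, Cxcl10 and Cxcl11 kept a positive sign under all 18 alternatives. Depth limits Cxcl1, Cxcl11 and, in cultures, Ccl2, Cxcl9 and Cxcl16, which rest on few reads.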
